A study of Mus musculus with 6 samples.

Results

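The insulin-like growth factor (IGF) genes considered here were 1 ligand gene, Igf1, the receptor genes Igf1r and Igf2r, and the binding protein genes Igfbp2 to Igfbp7. They were chosen by symbol from the 12491 genes of the lacrimal gland (LG) expression table, and all 9 passed the filter on low values, beside 12135 genes that passed it in all. Poly(A) RNA was sequenced from 3 LG samples of T2DM mice and 3 of vehicle mice. Both groups were C57BL/6 mice, male by the study's methods. The T2DM mice received a high fat diet and streptozotocin (STZ), a toxin of the insulin-producing cells of the pancreas, and stayed on that diet until collection. The vehicle mice ate a normal diet and were injected with citrate buffer, so diet, drug and diabetes cannot be told apart. The labels gave an age of 24 weeks for both groups and also 24 weeks after treatment for the T2DM mice. For mice that had lived for some weeks before treatment these statements cannot both hold. By the study's methods the high fat diet began weeks before STZ and went on for 24 weeks after it. The T2DM mice were therefore older than 24 weeks at collection. For its protein assays the study calls the vehicle glands age-matched, so the label of 24 weeks need not hold for the vehicle mice either. Neither the labels nor the methods say if glands of several mice were pooled for a library, and p-values therefore cover only differences among these 6 libraries.

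IGF1 is a small secreted growth factor that signals through IGF1R, a tyrosine kinase related to the insulin receptor. IGF2R, also known as the cation-independent mannose 6-phosphate receptor, carries lysosomal enzymes and takes up IGF2 for degradation. In tissue fluid most IGF is held by secreted binding proteins, which either keep it from the receptor or deliver it, and several of them also act on cells without IGF. IGFBP7 differs from the others in its low affinity for IGF and in its association with blood vessels. The question was whether the transcripts of this local system differed between T2DM and vehicle LGs.

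Of the 9 genes, Igfbp5 rose in T2DM LGs and none fell at an adjusted p under 0.05 (limma on log2(FPKM + 1), Benjamini-Hochberg adjustment over 12135 genes). FPKM express the fragments of a gene relative to its exonic length and to the size of the library. Over all tested genes, 10.5% were higher and 1.7% were lower by the same test, so 1 of 9 was close to the share of all genes. At an unadjusted p, 3 of the 9 were higher, namely Igfbp5, Igfbp6 and Igf1r, and none was lower, against 28.5% and 4.57% of all genes. The T2DM libraries lay above all vehicle libraries for 2 of the 9, Igfbp5 and Igfbp6, and below them for none, while 33.8% and 6.1% of all tested genes separated in these directions. The median log2 fold change was 0.23 over the 9 genes and 0.16 over all tested genes. With the libraries scaled instead by the median of ratios, a factor taken from the typical gene, these medians were 0.04 and 0.01. On the deposited scale 1271 of all genes were higher and 206 were lower, whereas on the other scale the numbers were 490 and 460, and none of the 9 passed. At an unadjusted p and on the scale of the median of ratios, 1 of the 9 was higher, Igfbp5, and 1 was lower, Igf1, against 14.4% and 12.6% of all genes. The T2DM libraries then lay above all vehicle libraries for Igfbp5 alone and below them for Igf1 alone, as did 17.5% and 16% of all genes. Fold changes on the deposited scale are therefore to be read against 0.16.

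Igfbp5 and Igfbp2 are neighbours on chromosome 1 of GRCm38, with Igfbp2 at 72824503 to 72852474 on the plus strand and Igfbp5 at 72857932 to 72874884 on the minus strand. Their 3' ends face each other across 5457 bases that hold no other gene of GENCODE M21. The 250 bases before the RefSeq start site are shown for this pair, of which Igfbp5 passed the test and Igfbp2 did not, and for Igfbp6, the other gene that separated the groups on the deposited scale. Igfbp5 lies on the minus strand (chr1:72874866-72875115), Igfbp2 on the plus strand (chr1:72824230-72824479) and Igfbp6 on the plus strand (chr15:102143936-102144185), all on GRCm38.p6 and read 5' to 3'. Capitals mark every match, on either strand, to the TATA box TATAAA, the Sp1 box GGGCGG, the E-box CACGTG, the FOXO site TGTTTAC or the AP-2 site GCCNNNGGC.
Igfbp5: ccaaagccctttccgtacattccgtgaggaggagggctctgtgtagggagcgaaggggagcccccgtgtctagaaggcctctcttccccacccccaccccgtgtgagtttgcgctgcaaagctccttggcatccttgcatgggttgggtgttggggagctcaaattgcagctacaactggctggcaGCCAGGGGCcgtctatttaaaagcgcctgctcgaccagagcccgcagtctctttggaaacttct
Igfbp2: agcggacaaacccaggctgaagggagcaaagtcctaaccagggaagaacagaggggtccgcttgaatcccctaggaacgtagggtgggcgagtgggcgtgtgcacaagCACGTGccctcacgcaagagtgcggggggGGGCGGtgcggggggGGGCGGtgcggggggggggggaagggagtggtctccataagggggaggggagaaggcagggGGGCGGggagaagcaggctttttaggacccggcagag
Igfbp6: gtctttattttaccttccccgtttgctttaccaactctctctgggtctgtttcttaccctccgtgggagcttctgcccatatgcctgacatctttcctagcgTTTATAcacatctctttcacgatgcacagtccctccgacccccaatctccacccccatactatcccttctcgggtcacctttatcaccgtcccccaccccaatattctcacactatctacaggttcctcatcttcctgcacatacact
The Igfbp5 window held 1 AP-2 match, 64 to 56 bases before the start, and no other match. AP-2 letters were present in 13.7% of 32851 RefSeq windows of this length. Of the 2 RefSeq starts of Igfbp2 the first is shown, and the window of the other held no match. The Igfbp2 window shown held 3 Sp1 matches and 1 E-box match, letters found in 32.7% and 6.02% of all windows. The Igfbp6 window held 1 TATA match on the other strand, 148 to 143 bases before the start, and 12.4% of all windows held these letters. FOXO letters were found in none of the windows of the 9 genes and in 3.17% of all windows. No matches overlapped each other. The share of G and C was 58.8% for Igfbp5, 67.2% for Igfbp2 and 49.6% for Igfbp6, against a median of 52.4% over all windows. All 9 genes had a RefSeq window, and the receptor windows held Sp1 matches only (2 for Igf1r) or beside E-box matches (3 and 2 for Igf2r). These matches describe letters and not bound sites.

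The ligand gene Igf1 was expressed at a low level, at 1.14, 2.02 and 1.88 FPKM in T2DM replicates 1, 2 and 3, against 1.87, 2.83 and 2.74 FPKM in vehicle replicates 1, 2 and 3. Vehicle replicate 1 lay within the range of the T2DM libraries, so the groups overlapped. The group means were 1.68 ± 0.47 FPKM in T2DM and 2.48 ± 0.53 FPKM in vehicle LGs (SD, n = 3 each). The log2 fold change was -0.38 (standard error 0.17, 95% interval -0.78 to 0.02), with an adjusted p of 0.17 from limma. On the scale of the median of ratios it was -0.51 (95% interval -0.94 to -0.07), and the adjusted p of 0.14 again missed the threshold. On that scale the groups separated narrowly, the highest T2DM library being at 1.94 and the lowest vehicle library at 1.95. Without T2DM replicate 1 the log2 fold change on the deposited scale was -0.23. Igf1 lies on chromosome 10 at 87858265 to 87937042, with 8 protein-coding transcripts in GENCODE M21, and the gene-level values do not show which transcript was used.

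The receptor gene Igf1r, on chromosome 7 at 67952827 to 68233668, was at 6.53, 4.13 and 5.17 FPKM in the T2DM libraries, against 4.40, 3.30 and 3.23 FPKM in the vehicle libraries. The overlap came from T2DM replicate 2 and vehicle replicate 1. Means were 5.27 ± 1.204 FPKM in T2DM and 3.64 ± 0.66 FPKM in vehicle LGs (SD, n = 3 each), and the log2 fold change of 0.43 (standard error 0.16) had an adjusted p of 0.12 by limma. On the scale of the median of ratios it was 0.27 (95% interval -0.07 to 0.60).

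Igf2r stood at about the same level in all libraries. It was at 21.5, 18.4 and 22.5 FPKM in T2DM LGs and at 22.4, 21.03 and 18.4 FPKM in vehicle LGs. Its log2 fold change was 0.01 (95% interval -0.24 to 0.27) and was -0.17 on the scale of the median of ratios (95% interval -0.40 to 0.06), so its sign depended on the scale. The ratio of Igf1r to Igf2r FPKM, which does not depend on the scale between libraries, was 0.304, 0.224 and 0.230 in the T2DM libraries, against 0.197, 0.157 and 0.176 in the vehicle libraries. For this ratio all T2DM libraries lay above all vehicle libraries, though Igf1r alone overlapped. The ratio was not tested, and how often ratios of other genes separate the groups was not computed. Of single genes, 33.8% separated in this direction on the deposited scale and 17.5% on the scale of the median of ratios. The long antisense transcript Airn overlaps Igf2r, and Igf1os overlaps Igf1. The library kit keeps the strand, but the use of strand in the quantification was not given in the sources used here.

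Among the binding proteins, Igfbp5 had the largest log2 fold change and, in T2DM LGs, the highest mean level. IGFBP5 binds IGFs and also extracellular matrix, and it is known for its high expression in the involuting mammary gland. It was at 47.6, 29.7 and 35.7 FPKM in T2DM replicates 1, 2 and 3, against 15.7, 22.8 and 21.5 FPKM in vehicle replicates 1, 2 and 3. The lowest T2DM library was above the highest vehicle library. Means were 37.7 ± 9.1 FPKM in T2DM and 19.999 ± 3.7 FPKM in vehicle LGs (SD, n = 3 each), a ratio of means of 1.88. Its log2 fold change was 0.87 (standard error 0.19, 95% interval 0.42 to 1.32, adjusted p = 0.034 from limma). The call lay close to the threshold. It was lost when any single library other than T2DM replicate 2 was left out, with log2 fold changes from 0.69 (without T2DM replicate 1) to 0.97 (without vehicle replicate 2) and adjusted p from 0.060 to 0.090, and on the scale of the median of ratios (0.69, adjusted p = 0.065). The unadjusted p stayed under 0.05 in all 16 alternative settings.

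Igfbp6 encodes a binding protein that prefers IGF2 over IGF1. Its level was 9.88, 11.2 and 10.2 FPKM in the T2DM libraries, against 4.99, 8.37 and 7.70 FPKM in the vehicle libraries. The groups did not overlap, and the spread was wider among vehicle libraries because replicate 1 was low. The means were 10.4 ± 0.7 FPKM in T2DM and 7.02 ± 1.79 FPKM in vehicle LGs (SD, n = 3 each). The log2 fold change of 0.53 (standard error 0.17) missed the threshold of limma's test, with an adjusted p of 0.075. On the scale of the median of ratios it was 0.36 (95% interval -0.07 to 0.79, adjusted p = 0.25), and T2DM replicate 1, at 8.78, then lay below vehicle replicate 2, at 8.87. Without vehicle replicate 1 the log2 fold change on the deposited scale was 0.34.

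Igfbp7, Igfbp2 and Igfbp4 had overlapping groups, and in each of them T2DM replicate 2 stood below the other T2DM libraries. Igfbp7 was at 30.2, 18.7 and 30.3 FPKM in the T2DM libraries, against 16.8, 22.7 and 24.3 FPKM in the vehicle libraries. Igfbp2, the neighbour of Igfbp5, was at 21.5, 12.7 and 18.2 FPKM in the T2DM libraries, against 13.3, 16.9 and 13.4 FPKM in the vehicle libraries. T2DM replicate 2 was the lowest of all 6 libraries for Igfbp2 and lay between the vehicle libraries for Igfbp7. Igfbp4, whose product is cut by the protease PAPP-A to free IGF, was at 11.4, 3.84 and 11.5 FPKM in the T2DM libraries, against 5.80, 8.92 and 7.19 FPKM in the vehicle libraries. Here T2DM replicates 1 and 3 were above, and replicate 2 was below, every vehicle library.

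The log2 fold changes of these 3 genes were 0.28 (95% interval -0.20 to 0.77) for Igfbp7, 0.23 (-0.20 to 0.66) for Igfbp2 and 0.15 (-0.68 to 0.97) for Igfbp4, with adjusted p of 0.37, 0.42 and 0.79 by limma. Each of these intervals holds 0 and also the value of Igfbp6. All 3 depended on single libraries. Without T2DM replicate 2 the log2 fold changes were 0.51 for Igfbp7, 0.43 for Igfbp2 and 0.60 for Igfbp4, with adjusted p of 0.094, 0.099 and 0.070 by limma and unadjusted p of 0.018, 0.020 and 0.0092. At the other end, Igfbp7 was at 0.13 without vehicle replicate 1, Igfbp2 at 0.07 without T2DM replicate 1 and Igfbp4 at -0.08 without T2DM replicate 3. Scaling by the median of ratios gave 0.10, 0.04 and -0.02 in the same order. Igfbp7 overlaps the gene of an RNA polymerase II subunit, Polr2b, on the other strand.

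Igfbp3, which carries most IGF in blood, was the lowest of the 9. It was at 1.21, 0.495 and 0.731 FPKM in the T2DM libraries, against 1.58, 0.611 and 1.04 FPKM in the vehicle libraries. The spread within each group was wider than the difference of the means, 0.813 ± 0.367 FPKM in T2DM and 1.08 ± 0.48 FPKM in vehicle LGs (SD, n = 3 each). The log2 fold change was -0.19, with an adjusted p of 0.55 from limma. It ranged from -0.36 without vehicle replicate 2 to -0.02 without vehicle replicate 1.

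**Figure D1:**
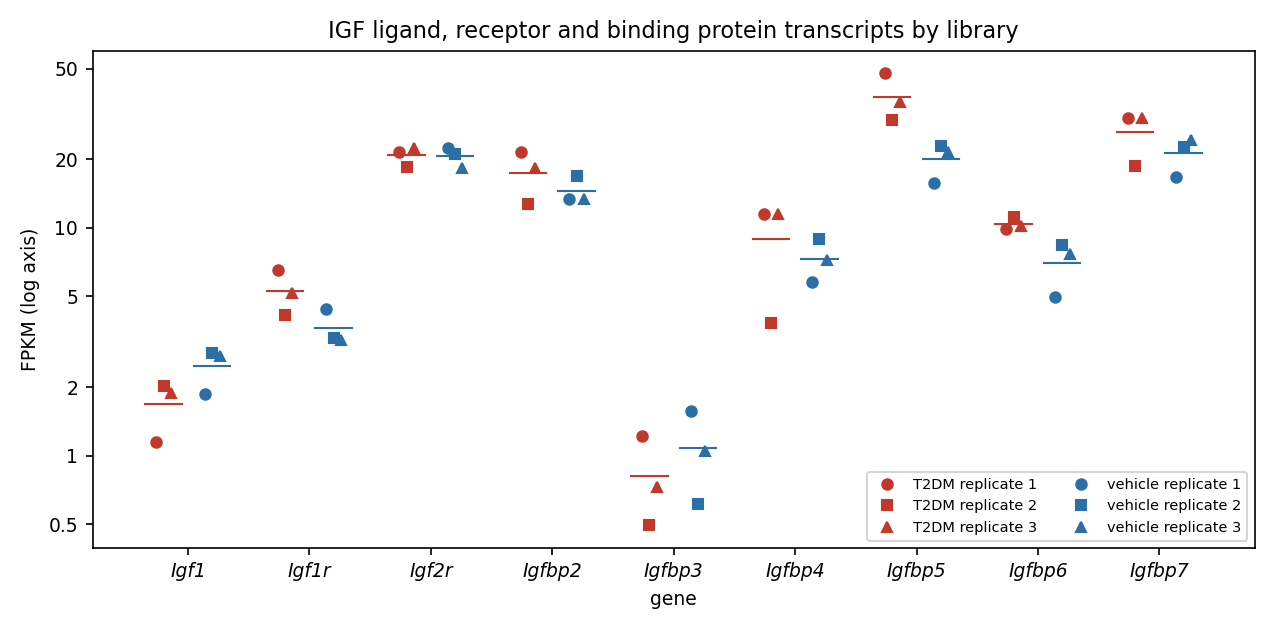
FPKM (log axis) of the 9 IGF genes in 3 T2DM (left, red) and 3 vehicle (right, blue) libraries, with a line at each group mean and a symbol for each replicate number. On this deposited scale Igfbp5 and Igfbp6 are the genes whose T2DM libraries all lie above the vehicle libraries, with T2DM means of 37.7 and 10.4 FPKM against vehicle means of 19.999 and 7.02 FPKM.

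**Figure D2:**
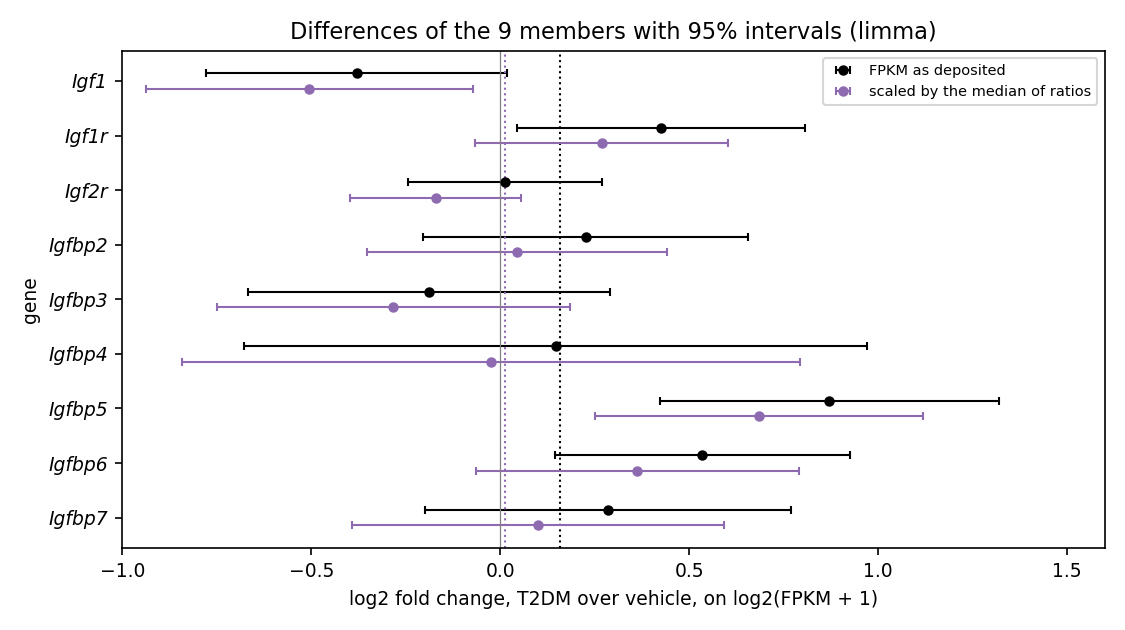
Log2 fold change of T2DM over vehicle with its 95% interval from limma, on the deposited scale (black) and on the scale of the median of ratios (purple), with dotted lines at the median of all tested genes (0.16 and 0.01). The interval of Igfbp5 lies above 0 on both scales (0.42 to 1.32 and 0.25 to 1.12), with adjusted p of 0.034 and 0.065 from limma. Intervals of Igfbp6 and Igf1r lie above 0 on the deposited scale, and that of Igf1 lies below 0 on the other. The intervals are not adjusted for the number of genes.

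Since FPKM are scaled by gene length, levels could be set side by side within a group. In T2DM LGs the order of means was Igfbp5, Igfbp7, Igf2r, Igfbp2, Igfbp6, Igfbp4, Igf1r, Igf1 and Igfbp3. Libraries of neighbouring genes in this order overlapped, except between Igfbp2 (lowest 12.7 FPKM) and Igfbp6 (highest 11.2 FPKM) and between Igf1r (lowest 4.13 FPKM) and Igf1 (highest 2.02 FPKM). In vehicle LGs the means of Igfbp7 (21.2 ± 4.0 FPKM), Igf2r (20.6 ± 2.0 FPKM) and Igfbp5 (19.999 ± 3.7 FPKM; SD, n = 3 each) lay within the spread of each other. Igfbp5 was the highest of the 9 in each T2DM library, and its lead over Igfbp7 was smallest in T2DM replicate 3. In the vehicle libraries the highest was Igf2r in replicate 1, Igfbp5 in replicate 2 and Igfbp7 in replicate 3.

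The make-up of the binding protein transcripts is free of the scale between libraries. Igfbp5 held 39.1%, 38.7% and 33.5% of the summed FPKM of Igfbp2 to Igfbp7 in T2DM replicates 1, 2 and 3, against 27.0%, 28.4% and 28.6% in vehicle replicates 1, 2 and 3. The share was thus higher in every T2DM library, with means of 37.1% ± 3.1 in T2DM and 28.0% ± 0.8 in vehicle LGs (SD, n = 3 each). The share of Igfbp2 was 17.6%, 16.6% and 17.1% in the T2DM libraries, against 22.9%, 21.1% and 17.9% in the vehicle libraries. All T2DM libraries were lower for Igfbp2, though vehicle replicate 3 was close to them. The ratio of Igfbp5 to its neighbour Igfbp2 was 2.22, 2.34 and 1.96 in the T2DM libraries, against 1.181, 1.346 and 1.603 in the vehicle libraries. Shares of Igfbp7, Igfbp6, Igfbp4 and Igfbp3 overlapped between the groups. The shares of a library sum to the whole, so they are not independent of each other. No test was run on shares or ratios, and how often those of other genes separate the groups was not computed. Igfbp5 had passed the test on these same FPKM, so its share and its ratio to Igfbp2 are not separate support for that difference. Of single genes, 33.8% had all T2DM libraries above all vehicle libraries on the deposited scale, and 17.5% on the scale of the median of ratios.

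**Figure D3:**
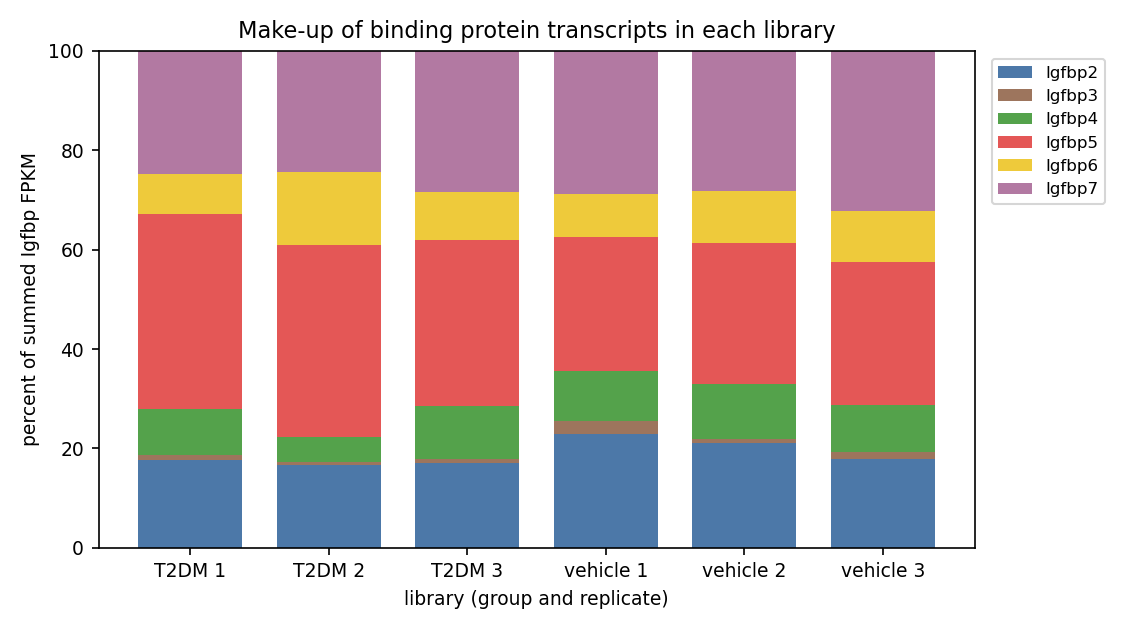
Percent of the summed Igfbp FPKM held by each binding protein gene in each of 3 T2DM and 3 vehicle libraries. The red Igfbp5 segment covers 33.5% to 39.1% in T2DM and 27.0% to 28.6% in vehicle libraries.

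Relative to the summed Igfbp FPKM, Igf1 was lower in the T2DM libraries. This ratio was not tested, and it was not computed how often ratios of other genes separate the groups. Igf1 amounted to 0.0094, 0.026 and 0.018 of the summed Igfbp FPKM in T2DM replicates 1, 2 and 3, against 0.032, 0.035 and 0.036 in vehicle replicates 1, 2 and 3. Every T2DM library lay below every vehicle library, with means of 0.0178 ± 0.0085 in T2DM and 0.0346 ± 0.0022 in vehicle LGs (SD, n = 3 each). The summed Igfbp FPKM itself was 121.8, 76.6 and 106.6 in T2DM LGs and 58.2, 80.2 and 75.1 in vehicle LGs. These sums overlapped, since T2DM replicate 2 fell between the vehicle libraries. The summed Igfbp FPKM also counts Igfbp7, whose product has a low affinity for IGF. The ratio of Igf1 to Igf1r overlapped between the groups. It was 0.175, 0.488 and 0.364 in T2DM LGs and 0.424, 0.858 and 0.848 in vehicle LGs. Transcript ratios do not give the amounts of free or bound IGF.

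Single libraries pulled many of the 9 genes the same way. T2DM replicate 2 was the lowest of its group for 7 of the 9 genes, and for 42.5% of all tested genes. Vehicle replicate 1 was the lowest of its group for 6 of the 9, and for 29.9% of all tested genes. Vehicle replicate 1 also held transcripts of salivary glands, with 2137 summed FPKM over the 4 salivary markers measured, against 10.4 and 6.18 in the other vehicle libraries and 0.394 to 1.78 in the T2DM libraries. Of that sum, 1127 FPKM came from the parotid gland transcript Bpifa2. Without vehicle replicate 1 the log2 fold change of Igfbp5 was 0.72, with an adjusted p of 0.067 from limma.

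Markers of several cell types of the gland moved beside Igfbp5. Over all tested genes limma's adjusted p called 10.5% higher and 1.7% lower. On the scale of the median of ratios these shares were 4.04% and 3.79%. The 5 acinar markers of the labelled tissue summed to 4381 to 4610 FPKM in T2DM and to 5286 to 5793 FPKM in vehicle libraries. Of these 5 markers 0 were higher and 1 was lower, or 0 and 2 on the scale of the median of ratios. The list did not move as a whole, since 2 of the 5 had a positive log2 fold change on the deposited scale. For 1 of the 5 all T2DM libraries lay above all vehicle libraries, and for 1 all lay below. In bulk samples, fewer cells of a type and less RNA per cell cannot be told apart. In the list of duct markers 5 of 8 passed limma's adjusted p in the direction of T2DM (3 on the scale of the median of ratios), and the summed FPKM ranged from 767.1 to 1003 in T2DM and from 575.6 to 632.5 in vehicle libraries. Of 7 markers of pericytes and smooth muscle 3 were higher, or 1 on the scale of the median of ratios (61.1 to 72.2 summed FPKM in T2DM, 42.5 to 49.5 in vehicle), and of 6 myoepithelial markers 2 were higher, or 0 on that scale (152.5 to 190.1 in T2DM, 115.8 to 128.3 in vehicle). Rgs5, a pericyte gene, was at 12.0 ± 3.5 FPKM in T2DM and 3.54 ± 0.46 FPKM in vehicle LGs, and the duct gene Wfdc2 was at 15.5 ± 8.7 FPKM in T2DM and 2.90 ± 0.28 FPKM in vehicle LGs (SD, n = 3 each). Krt14, a keratin of myoepithelial cells, was at 32.5 ± 5.7 FPKM in T2DM and 20.8 ± 1.6 FPKM in vehicle LGs.

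None of 7 fibroblast markers and none of 9 endothelial markers passed the same test. The summed fibroblast markers were at 85.7, 85.0 and 101.5 FPKM in T2DM LGs and at 60.1, 101.2 and 106.4 FPKM in vehicle LGs, lowest in vehicle replicate 1. The summed endothelial markers ranged from 11.1 to 15.5 FPKM in T2DM and from 9.81 to 12.9 FPKM in vehicle libraries. Of 7 markers of B and plasma cells 3 were higher, or 1 on the scale of the median of ratios, with summed FPKM of 506.7 to 559.6 in T2DM and 286.5 to 409.8 in vehicle libraries. None of 7 macrophage markers or 5 T cell markers passed on either scale. Summed macrophage markers ranged from 227.3 to 251.3 FPKM in T2DM and from 128.2 to 245.0 FPKM in vehicle libraries. Summed T cell markers ranged from 5.10 to 6.10 FPKM in T2DM and from 4.27 to 5.77 FPKM in vehicle libraries. No measured marker of these lists was at 0 in all libraries. The part of these cell types in the level of Igfbp5 was not tested.

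The 3 genes whose pattern was most like that of Igfbp5 were Flna, Glud1 and Gnai2, by Pearson's r of log2(FPKM + 1) over the 6 libraries among 5500 genes with a mean of at least 5 FPKM. Flna encodes the actin crosslinker filamin A, Glud1 a mitochondrial glutamate dehydrogenase and Gnai2 an inhibitory G protein subunit. Flna was at 20.1, 15.1 and 16.6 FPKM in T2DM LGs and at 10.4, 12.2 and 11.9 FPKM in vehicle LGs, with r = 0.995. The values of r for Glud1 and Gnai2 were 0.995 and 0.993. These figures describe the 6 libraries, which share the difference between the groups and their own scale.

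Around the 9 genes, pathway genes were higher in part and 1, Irs2, was lower. Lists of proteases and stanniocalcins, receptor signalling, the growth hormone axis, the mannose 6-phosphate pathway, relatives with an IGFBP domain and cell-surface partners had 71 tested genes, of which limma's adjusted p called 10 higher (14.1%) and 1 lower (1.41%). Over all tested genes the shares were 10.5% and 1.7%. The median log2 fold change of the 71 genes was 0.21, against 0.16 over all genes. On the scale of the median of ratios 3 of them were higher and 2 lower, against 4.04% and 3.79% of all genes. Without vehicle replicate 3 none was higher or lower, without vehicle replicate 1 or 2 or T2DM replicate 1 there were 2 higher in each case, and without T2DM replicate 2 there were 4.

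Irs2, an adaptor that passes the signal of the insulin and IGF1 receptors on, was at 4.03, 2.56 and 3.27 FPKM in the T2DM libraries, against 8.34, 7.66 and 9.69 FPKM in the vehicle libraries. It fell by 1.17 on the log2 scale (standard error 0.15, adjusted p = 0.012 from limma) and by 1.33 on the scale of the median of ratios. Without vehicle replicate 3 the log2 fold change was -1.08 and the adjusted p 0.055. Irs1, the related adaptor, was at 1.19 ± 0.12 FPKM in T2DM and 1.16 ± 0.23 FPKM in vehicle LGs (SD, n = 3 each), with a 95% interval of the log2 fold change from -0.24 to 0.29. Gab1, a docking protein for receptor kinases, rose to 8.33 ± 1.06 FPKM in T2DM, against 4.84 ± 0.18 FPKM in vehicle LGs. All 3 T2DM libraries were above all vehicle libraries for Gab1.

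The insulin receptor gene Insr, the closest relative of Igf1r, was at 8.85, 7.18 and 7.72 FPKM in the T2DM libraries, against 2.43, 6.13 and 2.00 FPKM in the vehicle libraries. Vehicle replicate 2 stood near the T2DM libraries and far from the other vehicle libraries. The log2 fold change was 1.09 (95% interval 0.40 to 1.78, adjusted p = 0.053 from limma), and without vehicle replicate 2 it was 1.47 (adjusted p = 0.013). Leaving out any other single library gave an adjusted p of 0.089 to 0.153 by limma. On the scale of the median of ratios the log2 fold change was 0.93 (adjusted p = 0.096 from limma). The ratio of Igf1r to Insr was 0.738, 0.575 and 0.669 in T2DM LGs and 1.81, 0.538 and 1.62 in vehicle LGs, so it overlapped only through that library.

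Of the kinases downstream, Akt1, Map2k1 and Mapk3 rose, as did Pik3r2, a regulatory subunit of PI 3-kinase. Mapk3, which encodes ERK1, was at 21.4 ± 1.9 FPKM in T2DM and 13.7 ± 0.8 FPKM in vehicle LGs, and Map2k1, its activating kinase MEK1, at 9.94 ± 0.90 FPKM in T2DM and 7.17 ± 0.43 FPKM in vehicle LGs (SD, n = 3 each). Akt1 was at 20.9 ± 1.9 FPKM in T2DM and 15.7 ± 1.1 FPKM in vehicle LGs. Pik3r2 was at 6.10 ± 0.26 FPKM in T2DM and 4.40 ± 0.03 FPKM in vehicle LGs. Mapk3 and Gab1 still passed on the scale of the median of ratios (adjusted p = 0.027 and 0.023 from limma), whereas Akt1, Map2k1 and Pik3r2 did not (0.15, 0.13 and 0.14). With 1 library left out, Mapk3 lost its call without vehicle replicate 3, Gab1 lost it without vehicle replicate 2 or 3, Map2k1 passed in 1 of 6 fits, and Akt1 and Pik3r2 passed in 0.

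In the growth hormone axis, Socs2 rose and the receptor gene Ghr differed little. Socs2 encodes a feedback inhibitor of growth hormone signalling. It was at 4.76, 3.53 and 2.40 FPKM in the T2DM libraries, against 1.06, 2.17 and 1.29 FPKM in the vehicle libraries, and limma gave a log2 fold change of 0.86 (SE 0.23) at an adjusted p of 0.048. It no longer passed on the scale of the median of ratios (adjusted p = 0.083), and with 1 library left out it passed in 1 of 6 fits, the one without T2DM replicate 3. Ghr was at 6.60 ± 0.21 FPKM in T2DM and 6.20 ± 0.24 FPKM in vehicle LGs (SD, n = 3 each), and the 95% interval of its log2 fold change was -0.12 to 0.28.

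The remaining rises were in single genes of the other lists. Stc1 encodes stanniocalcin-1, a secreted glycoprotein that inhibits PAPP-A, and was at 1.53, 0.935 and 0.824 FPKM in the T2DM libraries, against 0.335, 0.197 and 0.228 FPKM in the vehicle libraries. Its groups were well apart at a low level (adjusted p = 0.027 from limma, and 0.032 on the scale of the median of ratios), and the call held in 2 of 6 fits that left out 1 library, those without T2DM replicate 2 or 3. Nagpa, the enzyme that uncovers the mannose 6-phosphate tag recognised by IGF2R, was at 4.34 ± 0.58 FPKM in T2DM and 2.49 ± 0.59 FPKM in vehicle LGs (SD, n = 3 each). Crim1, a membrane protein with an IGFBP domain, was at 6.92 ± 2.44 FPKM in T2DM and 3.34 ± 0.26 FPKM in vehicle LGs. Neither Nagpa nor Crim1 passed on the scale of the median of ratios (adjusted p = 0.096 and 0.065 from limma). With 1 library left out, Nagpa passed in 0 of 6 fits and Crim1 in 1, the one without T2DM replicate 3. None of 9 cell-surface partners passed the test. Igf2, Igfbp1, Igfals, Pappa and the IGF2 mRNA-binding proteins were not analysed here.

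**Figure D4:**
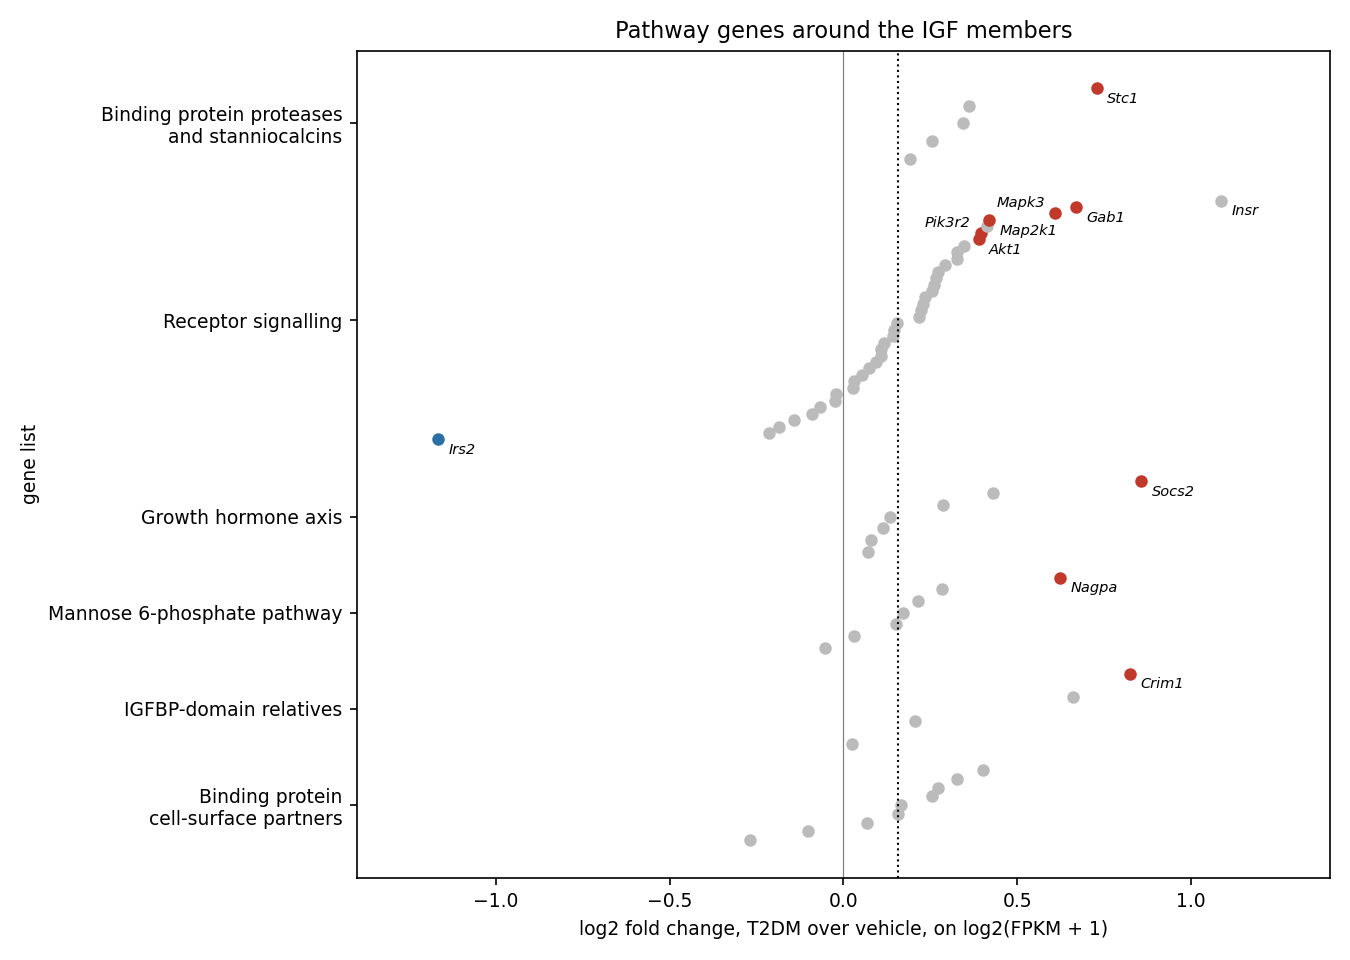
Log2 fold change of T2DM over vehicle for tested genes of 6 pathway lists, with genes higher (red) or lower (blue) at limma's adjusted p under 0.05 named, others in grey and the median of all tested genes (0.16) as a dotted line. Irs2 stands alone on the left at -1.17, and Insr at 1.09 has the largest positive difference but an adjusted p of 0.053.

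**Figure D5:**
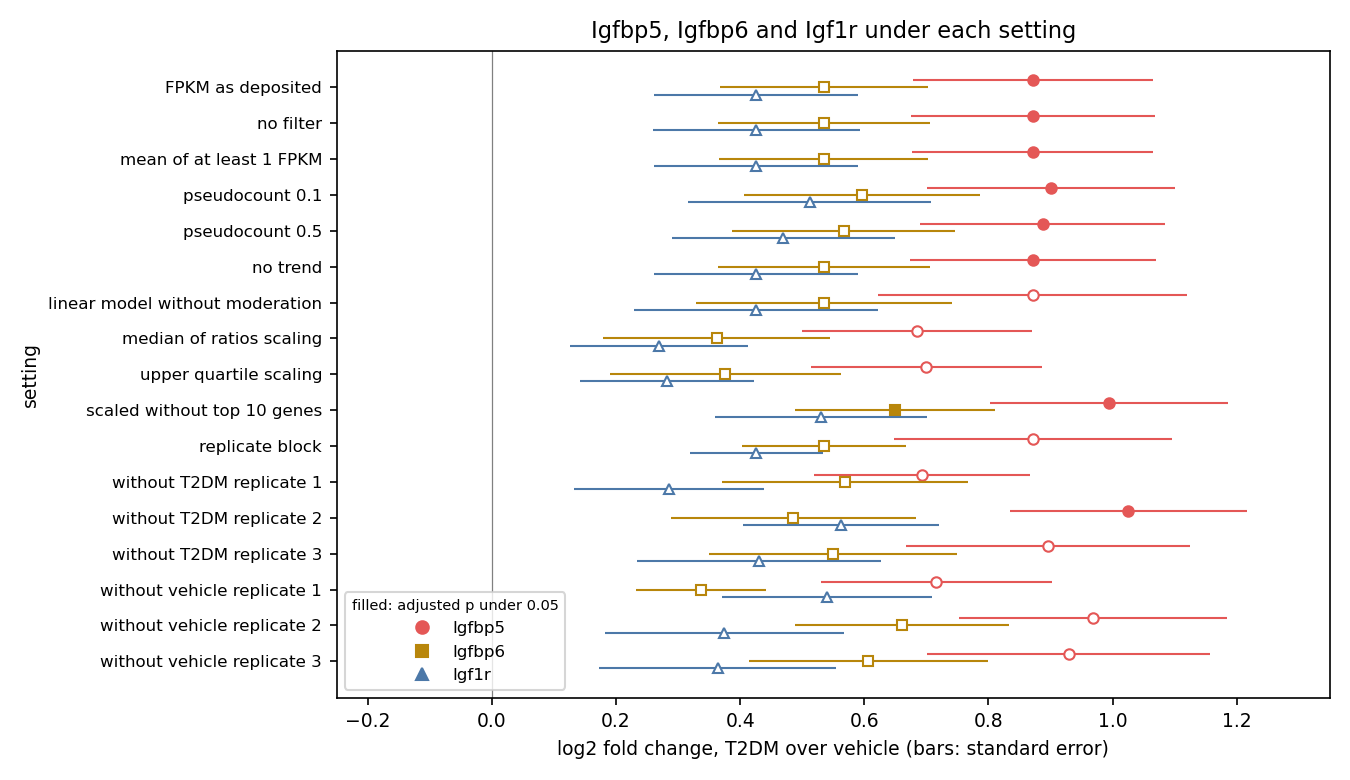
Log2 fold change (bars are standard errors) of Igfbp5, Igfbp6 and Igf1r on the deposited scale and in 16 alternative settings, filled where the adjusted p was under 0.05. Igfbp5 ranges from 0.69 to 1.03 and is filled in 7 of the 16 alternatives.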

How the data were processed

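Gene-level FPKM of 3 T2DM and 3 vehicle LG libraries were analysed. Reads had been trimmed (cutadapt) and aligned to mouse GRCm38 (HISAT2). From StringTie 1.2.3 estimates the authors computed the deposited FPKM in Ballgown 2.6.0. Human builds named in the submitters' notes were disregarded, since 11420 of 12491 gene loci are those of GENCODE M21. FPKM hold no read numbers, so counting intervals were not computed. Summed FPKM were 611638 to 693426 in T2DM and 723455 to 838936 in vehicle libraries. Since FPKM are relative to the size of the library, they depend in part on the most abundant genes. The median log2 fold change over all tested genes was 0.16 on the deposited scale. With scaling to the sum without the 10 most abundant genes it was 0.25. The part of abundant genes in the difference between groups was not tested. In the table used here 1 line was empty.

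Genes whose mean reached 0.5 FPKM in either group were tested with limma 3.58.1 (R 4.3.3) on log2(FPKM + 1), with a mean-variance trend and no covariate. Fold changes on this scale understate changes of low genes. The procedure was tested on simulated data. These were drawn with the spreads of the fitted model and without a difference in scale between groups, so they do not bear on the choice of scale. The alternatives varied the filter, the pseudocount, the test, the scaling and the replicate block, or left out 1 library. Named genes are the 9 IGF genes, pathway genes past the test, 8 pathway genes named regardless (Igf2, Igfbp1, Igfals, Insr, Irs1, Irs2, Ghr and Socs2, of which the first 3 were not analysed here), up to 3 markers per cell type and the 3 genes most similar to Igfbp5, which is also the member with the highest mean. Of the pathway genes past the test, 1 is counted but not reported here by name or in the plot of fold changes. The 9 genes, the lists and the test were chosen with earlier results of these data known.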

Additional observations from a re-analysis of the deposited data

How the results depend on the processing

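Igfbp5 kept a positive log2 fold change in all 16 alternatives (0.69 to 1.03) and passed the adjusted p in 7. The number of the 9 genes called higher was 0 with a linear model without moderation, with median of ratios or upper quartile scaling and with the replicate block, 2 with scaling to the sum without the 10 most abundant genes, and 0 to 1 with 1 library left out. None was lower at the adjusted p in any setting; at an unadjusted p Igf1 was lower in 5 of the 16 alternatives (limma). Under the same alternatives the pathway genes were 0, 3, 3, 4 and 23 higher (0 to 7 with 1 library left out), and 0 lower with the linear model, 2 with the median of ratios and 0 to 1 with 1 library left out. Over all genes there were 0, 490, 537, 551 and 3345 higher (25 to 886 with 1 library left out) and, for the first 4, 0, 460, 420 and 98 lower (16 to 130). At an unadjusted p the linear model gave 2960 higher and 488 lower. The signs of genes near 0 turned with median of ratios and upper quartile scaling, to -0.171 and -0.156 for Igf2r, -0.0241 and -0.0108 for Igfbp4, -0.0762 and -0.0677 for Irs1 and -0.0883 and -0.0748 for Ghr. With 1 library left out, Igf2r ranged from -0.0628 to 0.0938, Igfbp4 from -0.0810 to 0.602 and Irs1 from -0.0331 to 0.110. The cause was not tested. The share of Igfbp5 differed by 8.11 to 10.9 percentage points with 1 library left out. Over all tested genes, replicate numbers did not pair the libraries (correlations of same-numbered deviations 0.0322, 0.0160 and -0.0022). With the replicate block Igfbp5 had an adjusted p of 0.076 from limma. Under that block Igf1 and Igf1r had unadjusted p of 0.011 and 0.0084, and adjusted p of 0.080 and 0.074. With 3 libraries a group, the interval of Igfbp4 spans -0.68 to 0.97.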
